A study of Mus musculus with 13 samples.

Results

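The endothelial nuclei of the mouse hippocampus were taken from single-nucleus RNA sequencing of 13 female mice, with 1 library per mouse. A retained barcode had at least 500 detected genes and at most 5% mitochondrial UMIs, a UMI being a molecular tag that counts 1 captured RNA molecule. Endothelial nuclei were chosen by 6 genes (Flt1, Cldn5, Mecom, Ptprb, Slco1a4 and Abcb1a): at least 3 had to be detected, and their summed UMIs had to reach 30 per 10000 UMIs of the barcode. This rule selected 372 of 105427 retained barcodes (0.353%). Since expression chose the nuclei, every comparison of them with other nuclei below is a description without a test.

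All animals were C3B6F1 hybrids (the sample labels write C3HB6F1), and the tissue was whole frozen hippocampus. The 4 groups were young mice of 5 months fed ad libitum (n = 3), old mice of 24 months fed ad libitum (n = 3), old mice of 24 months on acute dietary restriction begun at 20 months (n = 3) and old mice of 24 months on long-term dietary restriction begun at 5 months (n = 4). The labels number the old ad libitum mice 1, 2 and 4. The design asks what ageing does under free feeding, and what restriction begun early or late in life does at old age.

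Brain endothelial cells line the vessels and form the blood-brain barrier. Tight junctions close the space between them, carriers such as the glucose transporter Slc2a1 move nutrients inward, and efflux pumps such as Abcb1a return foreign molecules to the blood. Wnt signals from neural tissue maintain this barrier state, blood flow induces the transcription factors Klf2 and Klf4, and the vessel wall is patterned from arterial through capillary to venous segments.

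Endothelial nuclei were shallow compared with the tissue around them. Their median depth was 1577.5 UMIs and 1059 genes, against 6288 UMIs in the other retained barcodes. Total depth ranged from 38546292 to 80538090 UMIs per library, and the endothelial nuclei of a library held between 6800 and 187481 UMIs. The median marker rate of the members was 155 per 10000 UMIs (quartiles 121 and 192, range 30.3 to 304). All 6 markers were detected in 190 nuclei, 5 in 103, 4 in 53 and 3 in 26. At the threshold, 6 members had a rate from 30 to under 35, and 5 barcodes with at least 3 markers were left out at a rate from 25 to under 30. Another 13 barcodes reached the rate with fewer than 3 markers. The 4 libraries numbered 1, 1 in each group, stood apart in another cell class: 0.739% to 3.61% of their retained barcodes met the oligodendrocyte rule, against 8.51% to 23.6% in the other 9. What the number stands for is not given in the labels, and the share relations and the counts of called genes are also given without these libraries. Pairs of libraries shared 4 to 40 barcode sequences, and no member sequence was a member in more than 1 library.

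The label was checked against other cell types, using lists of 6 marker genes each. Of the 372 nuclei, 64 also met the marker rule of another class: 31 the mural rule (pericytes and smooth muscle), 21 the neuronal, 7 the oligodendrocyte, 6 the astrocyte, 1 the microglial and 1 the macrophage rule, with some meeting several. No member met the fibroblast, oligodendrocyte precursor, choroid plexus or lymphatic rule. Scrublet, a doublet caller, placed 22 of the members among its highest-scoring barcodes (5.91%, against 7.01% of all retained barcodes). The barcodes that met another rule are called mixed barcodes, and the main comparisons of expression between groups below are given with and without them. Ratios to other nuclei, segment counts and share relations include them.

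**Figure D1:**
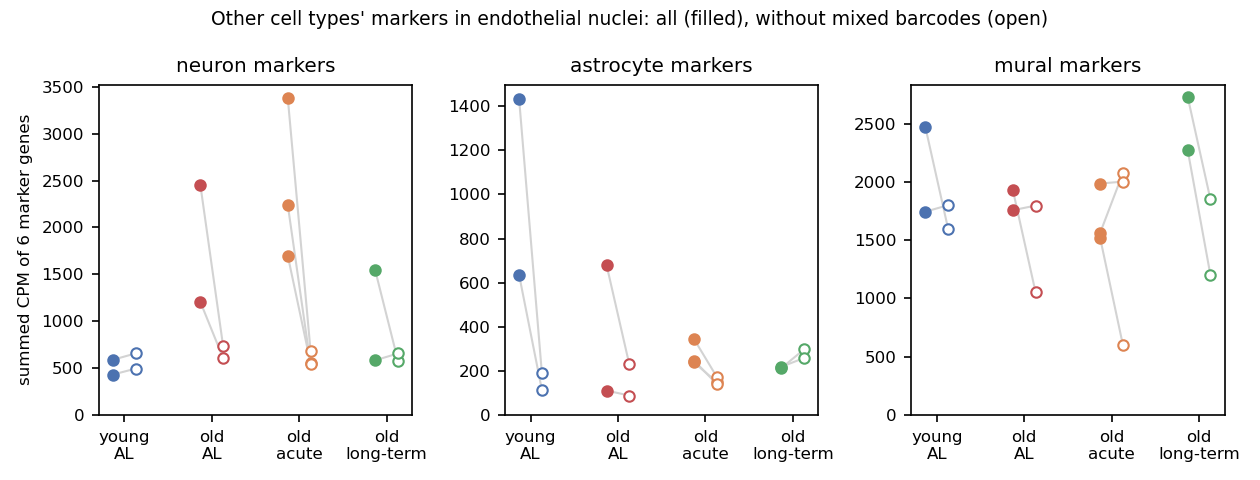
Summed CPM (UMIs scaled to a common total per library's endothelial sum) of 6 neuron, 6 astrocyte and 6 mural marker genes in the endothelial nuclei of the 9 libraries with at least 20 of them, by group, with all members (filled) and without mixed barcodes (open), AL standing for ad libitum. Neuron markers reached 1206 to 3377 CPM in old ad libitum and acutely restricted libraries against 431 and 589 in the young ones. All 9 libraries lay between 495 and 736 once mixed barcodes, which these same lists define, were left out.

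Markers of neurons and astrocytes in the endothelial sums differed between the groups, as the plot of other cell types' markers shows. CPM are the UMIs of a gene scaled to a common total. The neuron list (Rbfox3, Snap25, Syt1, Grin2a, Camk2a and Gad1) summed to 431 and 589 CPM in the young libraries, to 1206 and 2453 in the old ad libitum ones, to 1697, 2238 and 3377 in the acute and to 1541 and 584 in the long-term libraries. The young libraries were the lowest with 1 long-term library, and none of the young libraries held a member that met the neuronal rule. The astrocyte list summed to 1431 and 634 CPM in the young libraries and to between 111 and 680 in the other 7 libraries. Without mixed barcodes the astrocyte list lay between 114 and 190 CPM in young libraries and between 88.4 and 298 in the others. The mixed barcodes were chosen by these same lists, so lower sums without them follow from the rule. Outside the lists, the neuronal gene Fgf14 still stood at 22.9 CPM in old ad libitum 1 and 560 CPM in old ad libitum 2. Mural markers kept 598 to 2077 CPM without mixed barcodes, most of it from Rgs5, which was detected in 53.2% of the members. The other 5 mural genes were each detected in at most 11.02% of members. Even so, all 6 mural genes had a higher pooled CPM in all members than in the other retained barcodes. Of these, 5 were over 10-fold higher, with a median ratio of 17.95. Against mural nuclei 1 of the 6 was higher in members.

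The 6 genes of the rule are given as levels only. Flt1, a VEGF receptor, had a UMI in 98.9% of members and 0.509% of neurons, and its pooled CPM was 2610-fold higher in members than in all other retained barcodes. Slco1a4, an organic anion carrier, was 4226-fold higher, the tight junction protein gene Cldn5 2490-fold, the transcription factor gene Mecom 1553-fold, the efflux pump gene Abcb1a 1079-fold and the phosphatase gene Ptprb 577-fold.

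Genes outside the rule showed the endothelial character of the nuclei, and for the most abundant of them it was seen in all 13 libraries. Of 22 endothelial identity genes, all 22 had a higher pooled CPM in members than in all other retained barcodes, and 20 were over 10-fold higher, with a median ratio of 432. Against mural nuclei 18 of the 22 were over 10-fold higher. Adgrl4, an adhesion receptor of vessel sprouting, reached 2115 CPM in the members against 0.747 CPM elsewhere and was detected in 90.6% of members against 0.529% of neurons. Tie1, a receptor tyrosine kinase of the angiopoietin system, was 2336-fold higher, and the guidance receptor Robo4 1677-fold. Ly6c1, a surface protein of brain endothelium, was 1997-fold higher, and Pecam1, the junctional molecule CD31, 235-fold higher. The weakest ratios in this list were those of Palmd at 8.19 and Shank3 at 2.65, and Shank3 was also detected in 43.0% of neurons.

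By a rule of size, the 20 genes outside the marker set with the highest median ratio over libraries were taken, and the 19 described here are Dipk2b, Sox17, Adgrl4, Ctla2a, Tie1, Ly6c1, Robo4, Cyyr1, Icam2, Tbx1, Hspb1, Ly6a, Fmo2, Tinagl1, Zfp366, Foxf2, Adcy4, Wfdc1 and Adgrf5. The ranking adds 0.5 counts to each sum, which raises the ratio of a gene without a UMI in a small sum, so the count of libraries was made on raw counts. There 11 of the 19 were higher in members in 13 of 13 libraries, 7 in 12 and Tbx1 in 11, and the libraries missing from these counts held no member UMI of the gene. The highest was Dipk2b, with 226 CPM in members against 0.0378 CPM elsewhere and a median ratio of 5034 with the added counts. Sox17, a transcription factor of arterial endothelium, followed with a median ratio of 3994, and Hspb1, a small heat shock protein, had 1838. Foxf2 was the least separated from mural nuclei, with a pooled ratio of 2.74 to them, while Adgrl4 was 549-fold higher than in mural nuclei. The rarest of the 19, Foxf2 and Tbx1, had 70 and 71 UMIs in all members together.

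Promoter sequences were available for 19 of the 26 genes that are either markers of the rule or among these 20 (26 promoters). They are 300 bases long, from 250 before to 50 after the start, and come from RefSeq on GRCm38.p6, the assembly that mm10 names. The ones printed are 3 barrier genes of the rule (a junction protein, an efflux pump and a transcription factor) and 3 genes outside it, chosen with their matches known, so that a window with each motif and one without can be seen. Capitals mark a match, on either strand, to 1 of 4 short motifs searched for: CAGGAAG (ETS), ACAATGG (SOX), TGTTTAC (forkhead) and CTTTGAT (TCF/LEF).
Cldn5 promoter, chr16:18776597-18776896, plus strand: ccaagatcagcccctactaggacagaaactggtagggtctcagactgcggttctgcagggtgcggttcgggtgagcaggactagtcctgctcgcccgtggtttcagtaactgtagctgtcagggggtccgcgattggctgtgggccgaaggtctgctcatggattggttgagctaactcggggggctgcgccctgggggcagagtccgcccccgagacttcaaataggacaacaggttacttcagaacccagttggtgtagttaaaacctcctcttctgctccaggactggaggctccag
Abcb1a promoter, chr5:8566841-8567140, plus strand: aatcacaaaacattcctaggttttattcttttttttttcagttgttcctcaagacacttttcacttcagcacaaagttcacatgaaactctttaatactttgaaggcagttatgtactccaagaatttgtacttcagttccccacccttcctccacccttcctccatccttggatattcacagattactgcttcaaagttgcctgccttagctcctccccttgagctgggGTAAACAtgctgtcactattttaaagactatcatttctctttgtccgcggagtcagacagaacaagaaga
Mecom promoter, chr3:30509710-30510009, minus strand: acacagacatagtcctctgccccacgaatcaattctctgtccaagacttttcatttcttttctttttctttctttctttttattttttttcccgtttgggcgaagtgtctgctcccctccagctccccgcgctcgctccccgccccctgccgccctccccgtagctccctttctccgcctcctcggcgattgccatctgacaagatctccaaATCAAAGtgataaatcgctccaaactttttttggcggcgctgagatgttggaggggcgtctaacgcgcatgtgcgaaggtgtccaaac
Robo4 promoter, chr9:37401722-37402021, plus strand: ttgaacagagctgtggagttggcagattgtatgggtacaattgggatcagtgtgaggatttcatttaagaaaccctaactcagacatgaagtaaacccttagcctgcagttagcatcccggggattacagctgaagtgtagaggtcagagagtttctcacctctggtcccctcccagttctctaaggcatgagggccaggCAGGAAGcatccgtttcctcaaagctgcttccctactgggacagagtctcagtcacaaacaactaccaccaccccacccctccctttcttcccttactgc
Dipk2b promoter, chrX:18461348-18461647, minus strand: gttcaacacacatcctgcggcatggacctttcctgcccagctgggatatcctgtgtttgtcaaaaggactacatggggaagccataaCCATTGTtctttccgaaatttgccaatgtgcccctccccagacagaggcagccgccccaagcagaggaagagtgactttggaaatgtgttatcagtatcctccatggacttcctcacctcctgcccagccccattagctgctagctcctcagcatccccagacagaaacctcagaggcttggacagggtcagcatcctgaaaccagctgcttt
Hspb1 promoter, chr5:135887669-135887968, plus strand: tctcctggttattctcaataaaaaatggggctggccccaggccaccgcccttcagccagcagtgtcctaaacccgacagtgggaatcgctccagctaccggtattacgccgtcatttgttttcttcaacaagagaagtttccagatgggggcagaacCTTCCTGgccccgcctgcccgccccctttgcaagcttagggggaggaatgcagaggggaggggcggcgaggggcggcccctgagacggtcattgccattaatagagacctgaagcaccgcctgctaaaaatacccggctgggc

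The ETS letters were in 7 of the 26 promoters (26.9%), against 13.3% of all 32851 promoters in the table. They were found in Robo4, Hspb1, Adgrf5, Cyyr1, Tinagl1 and Ctla2a, whose overlapping pair of windows holds the same match and counts for 2 of the 7. The forkhead letters were in 2 of the 26 (Abcb1a and Fmo2; 3.65% of all promoters), the SOX letters in 1 (Dipk2b; 3.66%) and the TCF/LEF letters in 1 (Mecom; 3.73%). No promoter among the 26 held 2 different motifs. The Cldn5 window above holds none of the 4, nor does the other Mecom promoter, chr3:30013155-30013454. A match describes letters and is not a binding site.

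Barrier transporters were concentrated in the endothelial nuclei. All 20 listed genes were higher than in other nuclei and 16 were over 10-fold higher, with a median ratio of 46.8. The count over 10-fold against mural nuclei was also 16. Slc2a1, the glucose carrier, was 192-fold higher and detected in 82.0% of members against 3.80% of neurons. Slco1c1, a thyroid hormone and organic anion carrier, was 77.9-fold higher. The efflux pump Abcg2 was 54.0-fold higher, and Slc19a3, a thiamine carrier, 329-fold higher. Mfsd2a, the lipid carrier that keeps transcytosis low, was 60.5-fold higher. The insulin receptor Insr was 4.81-fold higher and was detected in 61.3% of members and 55.4% of neurons.

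Junction genes divided into endothelial and shared members. Of 16 genes, 9 were over 10-fold higher than in other nuclei and 7 over 10-fold higher than in mural nuclei. Cdh5, the endothelial cadherin, was 435-fold higher, Esam 429-fold and Lsr, a protein of tricellular junctions, 142-fold. Ocln, occludin, was 17.6-fold higher. The scaffold Tjp1 was 3.77-fold higher and was detected in 89.5% of members and 90.8% of neurons. Cgn, cingulin, was at 1.13 CPM in members against 4.05 CPM elsewhere, a single UMI.

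Signalling genes followed the receptor systems of vessels. In the list for VEGF, angiopoietin, Notch and BMP signalling, all 22 genes were higher in members and 14 were over 10-fold higher. The VEGF receptor Kdr was 509-fold higher, and the BMP receptor Acvrl1 864-fold. Id1, a target of BMP signalling, was 585-fold higher. Nrp1 was at a ratio of 1.25, with a UMI in 45.2% of members and 78.1% of neurons. In the Wnt barrier programme 11 of 19 genes were over 10-fold higher: the effector Lef1 was 224-fold higher, the transcription factor Foxq1 321-fold and the receptor Fzd4 88.5-fold. The co-receptor Lrp6 was at a ratio of 1.72. Against mural nuclei, 5 of the 19 Wnt genes and 10 of the 22 signalling genes were over 10-fold higher.

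Genes of vascular tone and immunity were also concentrated in the members against all other retained barcodes, with exceptions. Klf2 was 723-fold higher in members and Klf4 945-fold, and Nos3, the endothelial nitric oxide synthase, was 196-fold higher. Of 30 genes for inflammation, adhesion and interferon, 20 were over 10-fold higher. Among them Ifitm3 was 439-fold higher and the antigen-presenting molecule H2-K1 165-fold, while the adhesion molecules Vcam1 and Icam1 had a UMI in 8.06% and 4.30% of members. Cd74 had 0 UMIs in members. Plvap, the diaphragm protein of leaky vessels, was at 2.26 CPM in members against 8.05 CPM elsewhere. The list of glucocorticoid and fasting response genes was the least endothelial of the 13, with 10 of 24 genes over 10-fold higher and a median ratio of 3.42. Over 10-fold above mural nuclei were 4 of these 24, 13 of the 30 inflammation genes and 9 of the 18 tone and haemostasis genes.

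**Figure D2:**
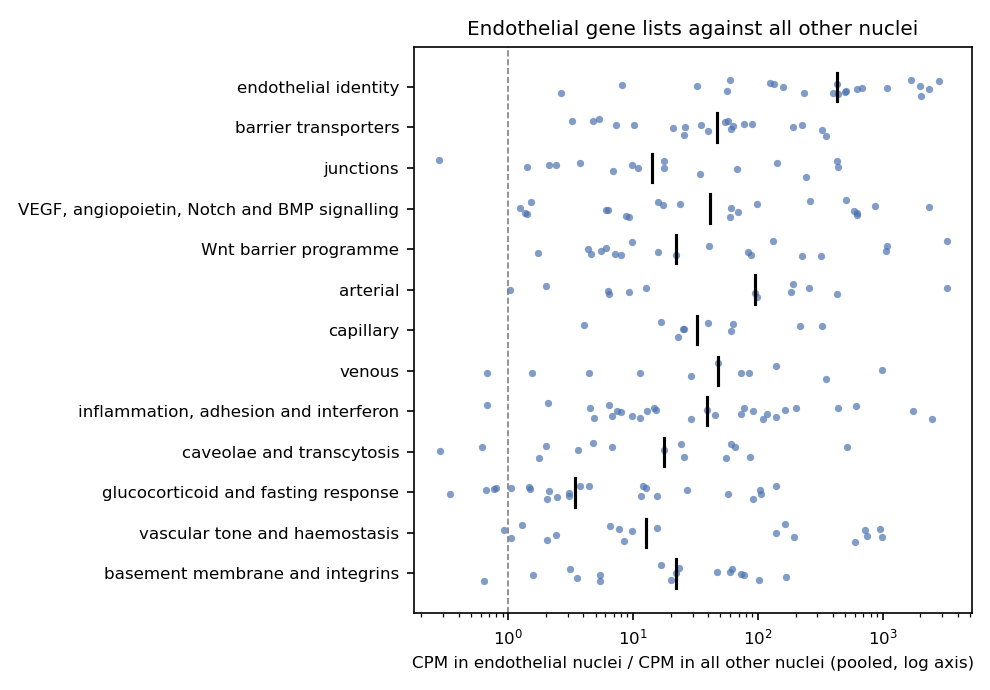
Pooled CPM in endothelial nuclei divided by pooled CPM in all other retained barcodes (log axis), 1 point per gene with a UMI in both, for 13 gene lists, with a bar at each list's median and a dashed line at equal levels. Identity genes had a median ratio of 432, transporters 46.8 and glucocorticoid and fasting response genes 3.42.

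Genes of all 3 vessel segments were detected. At least 2 of 10 capillary genes were detected in 305 of 372 nuclei (82.0%), at least 2 of 14 arterial genes in 172 (46.2%) and at least 2 of 11 venous genes in 188 (50.5%). The same counts gave 32.7%, 29.4% and 8.07% in neurons, which are deeper and which express several of these genes. Arterial and venous pairs were found together in 105 nuclei, so these counts do not sort nuclei into segments. The capillary count covered 85.2% of the nuclei of young mice, 94.5% in old ad libitum, 86.4% in acutely restricted and 70.4% in long-term restricted mice. The arterial count covered 33.3%, 49.3%, 48.2% and 48.1% in the same order, and the venous count 44.4%, 53.4%, 47.3% and 54.1%. These are nuclei pooled over mice, without a test. The median depth of endothelial nuclei per library was 1111.5 to 2360 UMIs, and its part in these shares was not tested.

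The share of endothelial nuclei varied widely within groups. Young libraries held 0.242%, 0.0603% and 0.353% of retained barcodes (20, 6 and 28 nuclei). Old ad libitum libraries held 1.28%, 0.229% and 0.0754% (45, 23 and 5 nuclei). Acutely restricted libraries held 0.455%, 0.320% and 0.373% (41, 23 and 46 nuclei). Long-term restricted libraries held 0.784%, 0.198%, 0.205% and 0.380% (80, 16, 9 and 30 nuclei). The widest spread was in the old ad libitum group, whose library 1 was the highest of all 13, and every pair of groups overlapped.

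**Figure D3:**
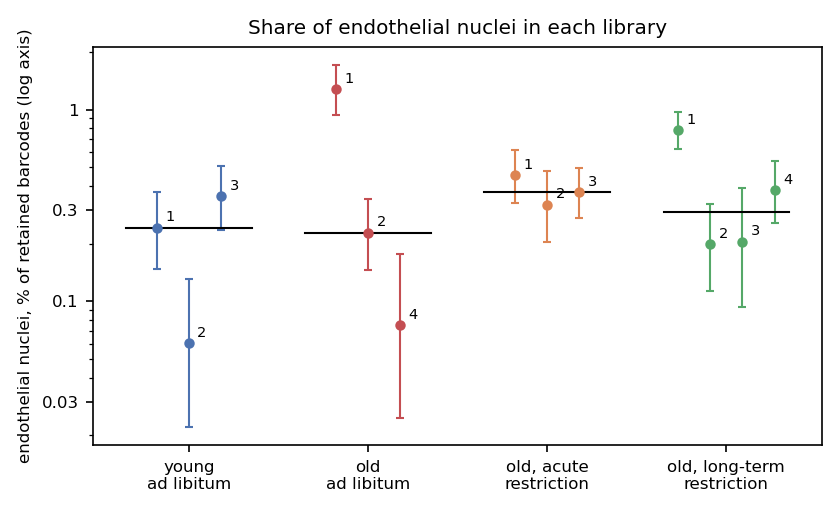
Endothelial nuclei as a percentage of retained barcodes (log axis) in each of 13 libraries, with exact 95% binomial intervals that cover counting error only, the label's replicate number beside each point and a bar at the group median. Group medians were 0.242% (young), 0.229% (old ad libitum), 0.373% (acute) and 0.293% (long-term), and the points of every pair of groups overlap.

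Mean shares were 0.219% ± 0.148 (SD, n = 3) in young, 0.528% ± 0.656 (n = 3) in old ad libitum, 0.383% ± 0.0682 (n = 3) in acutely restricted and 0.392% ± 0.275 (n = 4) in long-term restricted mice. No difference passed an exact two-sided permutation test over mice of the log2 odds. Old minus young was 0.71 (p = 0.7), long-term minus old ad libitum 0.22 (p = 0.857), acute minus old ad libitum 0.39 (p = 0.7) and long-term minus acute -0.17 (p = 0.886), with an adjusted p of 0.886 for each of these 4 exact tests. With 3 mice against 3 the smallest p possible in the exact test is 0.1, and with 4 against 3 it is 0.0286. An exact permutation test of all 4 groups gave F = 0.457 and p = 0.734. Without mixed barcodes the 4 differences were 0.86, 0.22, 0.36 and -0.13 in the order above, with an adjusted p of 0.857 for each exact test. Without old ad libitum library 1 the log2 odds difference was -0.37 for old minus young and 1.47 for acute minus old ad libitum.

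The endothelial share was set beside the shares of 3 other classes. Over the 13 mice the log2 odds of the endothelial share and of the mural share, counted without shared barcodes, had Pearson r = 0.862 (permutation p = 0.00056, adjusted over 3 relations 0.00168) and Spearman rho = 0.868 (permutation p = 0.00024, adjusted 0.00072). Without the 2 libraries farthest from the median endothelial share r was 0.715, and without the 4 libraries numbered 1 it was 0.803. Fibroblasts had r = 0.722 (permutation p = 0.00395, adjusted 0.00593) and rho = 0.720 (permutation p = 0.00702, adjusted 0.0105), and r was 0.610 without the 2 farthest libraries and 0.432 without those numbered 1. Oligodendrocytes gave r = -0.40 (permutation p adjusted to 0.174), and without the libraries numbered 1 r was 0.114, so the negative value rests on those 4. All shares of a library have the same denominator.

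Expression was compared between groups on UMI counts summed over the endothelial nuclei of each mouse, using sums of at least 20 nuclei. That left 9 mice with 336 nuclei: young 1 and 3, old ad libitum 1 and 2, acute 1, 2 and 3 and long-term 1 and 4. The p-values therefore measure the spread between these mice, and with 2 mice in 3 of the 4 groups only large differences can be called. edgeR tested 2187 genes, and a gene was called at an adjusted p under 0.05. Where the text says that a gene was higher or lower without a call, the difference is a description. Statements on which libraries were high or low are about these 9. The 4 libraries left out held 6800 (young 2), 13394 (old ad libitum 4), 37053 (long-term 2) and 18032 UMIs (long-term 3), and their raw CPM are given for the genes the results turn on. Raw CPM divide by all UMIs of a sum, while log2 CPM divide by the TMM-scaled UMIs of the tested genes, so log2 CPM are higher and the scales are not to be compared.

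With age under free feeding no gene was called (0% of 2187 genes). Unadjusted p-values under 0.05 were reached by 143 genes that were higher in old mice (6.54% of tested genes) and 81 that were lower (3.7%). DESeq2 called 20 genes, 19 of them higher. Of the higher genes, 101 of 143 (70.6%) had a higher pooled CPM in neurons than in endothelial nuclei, against 26.2% of all tested genes. Among the 397 tested genes that were at least 10-fold higher in members than elsewhere, 5 were higher at that p and 26 were lower. The neuron markers moved with this comparison, at 431 and 589 CPM in young against 1206 and 2453 CPM in old libraries. Without mixed barcodes 1382 genes were tested, none was called, and 54 higher and 58 lower genes had an unadjusted p under 0.05. Of the 54, 16 (29.6%) had a higher pooled CPM in neurons, against 15.9% of the 1382. Mixed barcodes were chosen in part by neuron and astrocyte markers. Fewer neuronal or astrocyte genes without them, here and in the comparisons below, therefore follow in part from the rule.

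The rule for naming genes gave Wdr17, Fgf14, H3f3a, Camta1 and Msra as the 5 of smallest p whose groups did not overlap. Fgf14, a regulator of neuronal sodium channels, stood at 8.22 and 8.07 log2 CPM in young libraries and at 9.92 and 10.68 in old ad libitum ones. The old libraries were above both young ones, with a log2 fold change of 2.31 (SE 0.47, edgeR adjusted p = 0.194). Fgf14 was 0.193 times as high in the members as in other nuclei. Without mixed barcodes it had 2 and 4 UMIs in the young and 2 and 19 UMIs in the old ad libitum sums, and the groups overlapped. Camta1 (log2 fold change 3.01, adjusted p = 0.28) and Msra (3.03, adjusted p = 0.28) were likewise higher in the old libraries, from 1 or 2 UMIs in each young sum.

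H3f3a, which encodes the replacement histone H3.3, was lower with age. It stood at 10.02 and 9.88 log2 CPM in the young, 8.50 and 7.83 in the old ad libitum, 8.67, 9.18 and 9.06 in the acute and 9.11 and 8.87 in the long-term libraries. Both young libraries were above all 7 old ones. Among the libraries left out, old ad libitum 4 had 672 CPM of H3f3a (9 UMIs), above young 1 and 3 at 667 and 612 CPM. The log2 fold change for H3f3a was -1.80 (SE 0.37, edgeR adjusted p = 0.194), and -1.76 (SE 0.47, adjusted p = 0.266) without mixed barcodes. With all 13 libraries it was -1.37 (edgeR adjusted p = 0.276).

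The flow-induced Klf2 was among the lower genes. Klf2 stood at 10.72 and 10.71 log2 CPM in the young libraries, 9.51 and 9.43 in the old ad libitum ones, 10.32, 10.49 and 10.996 in the acute and 10.89 and 10.09 in the long-term libraries. The 2 old ad libitum libraries were the lowest of the 9. The libraries left out did not follow these groups: Klf2 had 441 CPM in young 2 (3 UMIs), 597 in old ad libitum 4 (8 UMIs), 567 in long-term 2 (21 UMIs) and 111 in long-term 3 (2 UMIs), against 466.4 and 427 CPM in old ad libitum 1 and 2. The log2 fold change of Klf2 with age was -1.28 (SE 0.36, edgeR unadjusted p = 0.0036, adjusted p = 0.368), and -1.44 (SE 0.36, adjusted p = 0.237) without mixed barcodes. With all 13 libraries it was -1.03 (edgeR adjusted p = 0.564). Hspb1 stood at 10.64 and 9.77 log2 CPM in young and at 9.05 and 8.88 in old ad libitum libraries, a log2 fold change of -1.35 (SE 0.43, adjusted p = 0.404). Selenop, a selenium transport protein, stood at 9.75 and 10.02 in young and 8.94 and 8.11 in old ad libitum libraries, with a log2 fold change of -1.31 (SE 0.36, adjusted p = 0.356). Old ad libitum 4, left out of the fit, had 672 CPM of Selenop (9 UMIs), between young 1 at 549 and young 3 at 680 CPM. It had 149 CPM of Hspb1 (2 UMIs). Klf4, which flow also induces, did not separate the groups: it stood at 8.36 and 8.07 in young and at 8.04 and 8.80 in old ad libitum libraries.

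The lists show where the remaining members lay with age. None of the 22 identity genes was called, and 0 were higher and 2 lower at an unadjusted p under 0.05, beside 6.54% and 3.7% of all tested genes, with a median log2 fold change of 0.07 beside 0.09 over all tested genes. The 2 were Ly6c1 (-0.73) and Itm2a (-0.80). Of 19 tested transporters Slc40a1, the iron exporter ferroportin, was higher (1.19, adjusted p = 0.411) and Slc3a2, the heavy chain of the large amino acid carrier, was lower (-0.95, adjusted p = 0.442). In the signalling list Id3 was the 1 gene of 15 tested at that p, at -1.19 (SE 0.31, adjusted p = 0.314), while its relative Id1 overlapped between the groups.

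Other lists held further members at an unadjusted p under 0.05. In the capillary list Car4, a surface carbonic anhydrase, was at -0.79 and Rgcc at -1.23, of 10 tested. In the arterial list Arl15 was at 0.82, of 3 tested. The junction scaffold Magi1 was at 0.82 and the endocytic GTPase Dnm2 at 1.36. In the inflammation list Stat3 was at 1.25 and the NF-kappa-B inhibitor Nfkbia at -0.97. Mt1, a metallothionein, was at -1.05, Plat, the tissue plasminogen activator, at -1.42 and Igfbp7 at -0.79. None of these passed the adjusted edgeR test, and the Wnt barrier and venous lists held no such gene. Without mixed barcodes Slc40a1, Car4, Rgcc, Magi1, Dnm2 and Mt1 were no longer at that p and Stat3 was not tested, while the identity gene Egfl7 was lower and H2-K1 higher at that p. The median of the 8 tested glucocorticoid and fasting response genes, of 24 listed, was -0.62, beside 0.09 over all tested genes. Of the 8, 7 were below 0, beside 981 of all 2187. Under long-term restriction, against the same 2 old ad libitum libraries, 7 of the 8 were above 0, beside 1029 of all 2187.

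Long-term restriction was compared with old ad libitum feeding, and no gene was called (0% of 2187). DESeq2 called 0 as well. At an unadjusted p under 0.05, 28 genes were higher (1.28% of tested genes) and 59 lower (2.7%). Of the 59 lower genes, 38 (64.4%) had a higher pooled CPM in neurons than in endothelial nuclei, against 26.2% of all tested genes. A higher pooled CPM in astrocytes was found for 37 of the 59 (62.7%), against 23.7% of all tested genes. Of the 28 higher genes this held for 2 in either class. The neuron markers stood at 1541 and 584 CPM in the long-term libraries against 1206 and 2453 CPM in old ad libitum ones. Without mixed barcodes no gene was called either, with 20 higher and 26 lower genes at that p. A higher pooled CPM in neurons was then found for 4 of the 26 and 6 of the 20, against 15.9% of the 1382 genes tested.

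St6galnac3, a sialyltransferase of ganglioside synthesis, was lower under restriction. It stood at 10.21 and 10.39 log2 CPM in young, 10.67 and 10.92 in old ad libitum, 9.95, 9.71 and 9.94 in acute and 9.52 and 9.31 in long-term libraries. All 5 restricted libraries were below all 4 ad libitum ones. Of the libraries left out, long-term 3 was at 832 CPM (15 UMIs), above young 1 at 765 CPM, while old ad libitum 4 was the highest of the 13 at 1643 CPM and long-term 2 the lowest at 378 CPM. The log2 fold change under long-term restriction was -1.41 (SE 0.30, edgeR adjusted p = 0.402). Without mixed barcodes it was -1.52 (SE 0.32, adjusted p = 0.0916), and with all 13 libraries -1.33 (edgeR adjusted p = 0.375). St6galnac3 is also expressed outside vessels, and its pooled ratio to other nuclei was 1.27. The other genes of smallest p were Ncam1 (-2.27), Lrp1b (-1.76) and Sema6d (-1.92), all lower and none called. Ncam1 and Lrp1b were 0.26 and 0.191 times as high in members as in other nuclei.

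Hspb1, Klf2 and Selenop, whose lowest values in the 9 libraries were those of the 2 old ad libitum ones, and the cell cycle regulator Rgcc had higher values under long-term restriction, without a call. Hspb1 stood at 10.68 and 10.09 log2 CPM in long-term libraries, above 9.05 and 8.88 in old ad libitum ones, with a log2 fold change of 1.50 (SE 0.42, edgeR unadjusted p = 0.00286). Its value without mixed barcodes was 1.31 (SE 0.37, edgeR adjusted p = 0.841). Klf2 had a log2 fold change of 1.12 (SE 0.35, edgeR unadjusted p = 0.00707), Selenop 0.95 (SE 0.35) and Rgcc 1.20 (SE 0.43). The long-term libraries left out went the other way in part: Selenop had 135 and 222 CPM in long-term 2 and 3 (5 and 4 UMIs), Klf2 567 and 111 CPM, Rgcc 54.0 and 166 CPM (2 and 3 UMIs), and Hspb1 513 and 998 CPM (19 and 18 UMIs). Old ad libitum 4 had 672 CPM of Selenop. With all 13 libraries Selenop was at 0.26 (SE 0.41), Klf2 at 0.65, Rgcc at 0.77 and Hspb1 at 1.53, none called by edgeR. The same 2 old ad libitum libraries are the reference in both comparisons, so these values are not independent of the age values above. Of the lists, Tgfbr2, a TGF-beta receptor, was lower (-0.98, SE 0.45), and no identity gene, transporter, junction or Wnt gene reached an unadjusted p under 0.05 with all members. Without mixed barcodes Emcn of the identity list, the transporter Slc22a8, B2m, H2-K1 and Mt1 were lower at that p.

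**Figure D4:**
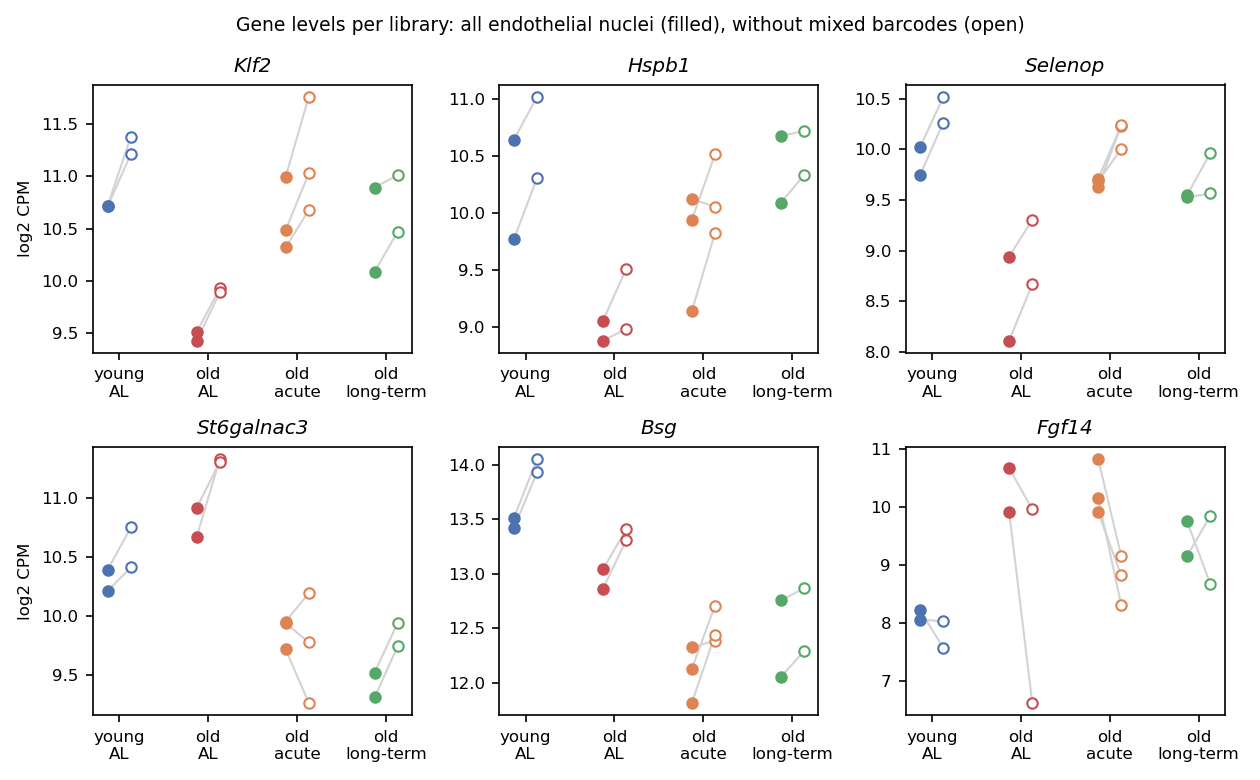
Log2 CPM of 6 genes in the endothelial sum of each of 9 libraries by group, for all members (filled) and without mixed barcodes (open, joined to the same library), AL standing for ad libitum. Klf2 and Selenop were lowest in the 2 old ad libitum libraries, all 5 restricted libraries were below the ad libitum ones for St6galnac3, the young libraries were highest for Bsg, and Fgf14 went from 94 to 2 UMIs in old ad libitum library 1 without mixed barcodes.

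Acute restriction against old ad libitum feeding gave no call either (0% of 2187), and DESeq2 called 0. At an unadjusted p under 0.05, 35 genes were higher (1.6%) and 46 lower (2.1%), and 12 of each were among the 397 genes at least 10-fold higher in members than elsewhere (3.02% of these each way). Of the 46 lower genes, 20 (43.5%) had a higher pooled CPM in astrocytes than in endothelial nuclei, against 23.7% of all tested genes. Astrocyte markers stood at 680 and 111 CPM in old ad libitum 1 and 2 and at 238 to 344 CPM in the acute libraries, and macrophage markers stood at 600 CPM in old ad libitum 1 (0 without mixed barcodes) and at 0 to 14.0 CPM in the others. Without mixed barcodes 38 genes were higher and 41 lower at that p. Klf2 was again higher, at 10.32, 10.49 and 10.996 log2 CPM against 9.51 and 9.43, with a log2 fold change of 1.20 (SE 0.33, edgeR adjusted p = 0.953). Without mixed barcodes it was 1.38 (SE 0.33, adjusted p = 0.0962). Selenop was at 1.09 (SE 0.33) and Hspb1 at 0.84 (SE 0.39, edgeR unadjusted p = 0.0524). The reference was again the 2 old ad libitum libraries. Old ad libitum 4, left out of the fit, had 672 CPM of Selenop (9 UMIs), above the acute libraries at 533, 501 and 512.5 CPM. With all 13 libraries Selenop was at 0.80 (SE 0.42), Klf2 at 1.16 (SE 0.49) and Hspb1 at 1.00 (SE 0.41), none called by edgeR.

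St6galnac3 had a log2 fold change of -0.94 (SE 0.27, edgeR adjusted p = 0.953) under acute restriction. Without mixed barcodes it was -1.59 (SE 0.30, adjusted p = 0.0181) and became the 1 gene called, from 1382 tested. With both restricted groups averaged against old ad libitum mice, 0 genes were called (0% of 2187) with all members. At an unadjusted p under 0.05 there were 84, and St6galnac3 stood at -1.17 (SE 0.24, edgeR adjusted p = 0.534). The same average without mixed barcodes gave -1.55 (SE 0.26, adjusted p = 0.00325), again the only call. Leaving out mixed barcodes reduced young library 1 to 15 nuclei and old ad libitum library 2 to 19.

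Other genes of the acute comparison included nuclear and mitochondrial ones. Nrf1, a regulator of mitochondrial biogenesis, was lower (-1.41, SE 0.39), with 7 or 8 UMIs per acute library. The mitochondrially encoded mt-Co2 was lower (-1.45, SE 0.39). Rorb, a nuclear receptor at 1702 CPM in astrocytes, had 0 UMIs in the 3 acute sums against 34 and 1 in the old ad libitum ones. Without mixed barcodes Rorb had 1 UMI in each old ad libitum sum. No edgeR call was made for any of these.

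Members of the vessel lists also reached an unadjusted p under 0.05 in the acute comparison. Adgrl4 was higher (0.66, SE 0.24), at 11.77, 12.17 and 11.94 log2 CPM against 11.30 and 11.34, and Sox18 was lower (-1.11, SE 0.49), which made 1 of 22 identity genes in each direction, beside 1.6% of all tested genes higher and 2.1% lower. Old ad libitum 4, left out of the fit, had 2986 CPM of Adgrl4 (40 UMIs), above acute 1 and 3 at 2328 and 2489 CPM, and with all 13 libraries Adgrl4 was at 0.46 (SE 0.31, edgeR unadjusted p = 0.153). Sox18 was no longer at that p without mixed barcodes. Slc22a8, an organic anion carrier of the barrier, stood at 7.64, 8.42 and 7.68 log2 CPM against 9.08 and 9.21, a log2 fold change of -1.32 (SE 0.39). With all 13 libraries Slc22a8 was at -1.48 (SE 0.40, edgeR adjusted p = 0.999). It was the 1 transporter of 19 with all members, and without mixed barcodes Mfsd2a was also at that p, higher. The immune genes B2m (-0.89) and Ly6e (-0.83) were lower, of 13 tested in their list, and the matrix protein gene Fn1 was higher (0.77). H2-K1 of the same immune list, and Smad6 and Tgfbr2 of the signalling list, were also lower at that p without mixed barcodes. All 7 tested genes for vascular tone and haemostasis were above 0, beside 1140 of all 2187 tested genes. Their median was 0.68 beside 0.03 over all tested genes, and Klf2 was the 1 gene of these at an unadjusted p under 0.05. Under long-term restriction, against the same 2 old ad libitum libraries, all 7 were above 0 as well, with a median of 0.35. Without mixed barcodes the median of the 7 tested genes of this list was 0.66 under acute and 0.081 under long-term restriction.

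**Figure D5:**
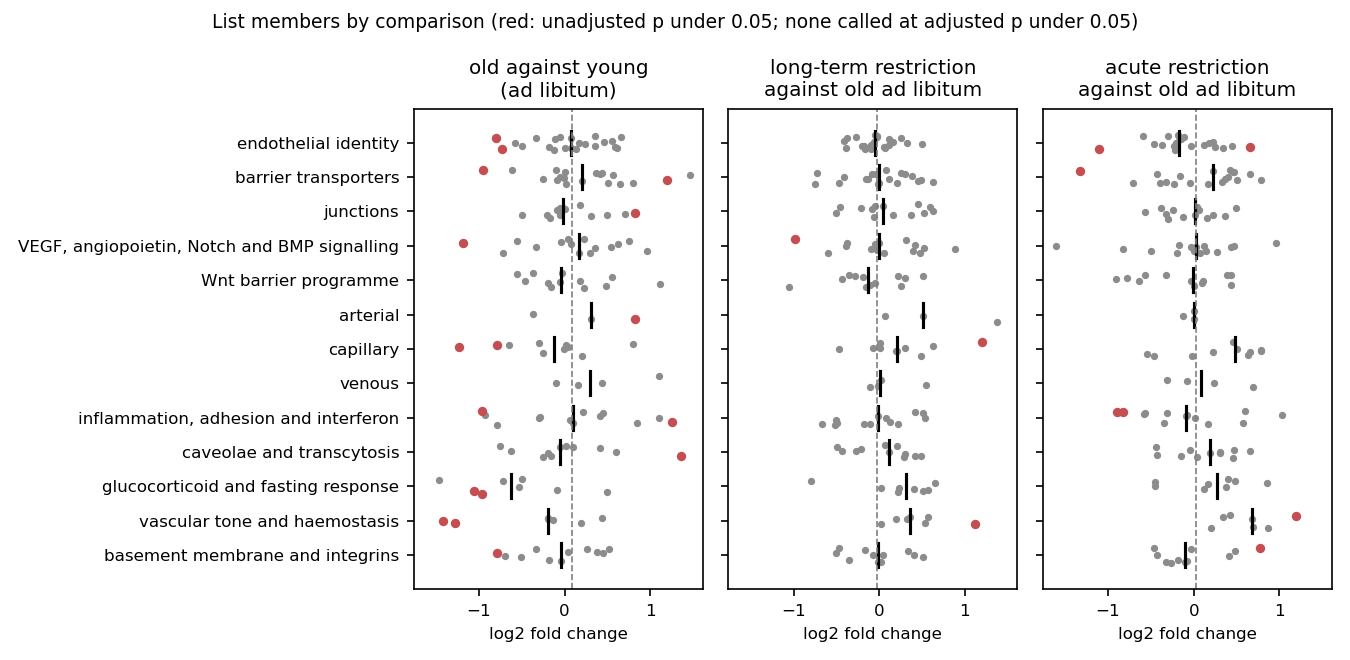
Log2 fold changes of the tested genes of 13 lists in 3 comparisons of endothelial sums, with red points for an unadjusted edgeR p under 0.05, a bar at each list's median and a dashed line at the median of all 2187 tested genes. No listed gene was called, and medians of the identity genes were 0.07, -0.05 and -0.17 from left to right.

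Long-term and acute restriction were compared directly, and no gene was called (0% of 2187), while DESeq2 called 2, both lower. At an unadjusted p under 0.05, 21 genes were higher under long-term restriction (0.96%) and 79 lower (3.61%). Of the 79, 64 (81.0%) had a higher pooled CPM in neurons than in endothelial nuclei, against 26.2% of all tested genes. The neuron markers stood at 1697, 2238 and 3377 CPM in the acute libraries against 1541 and 584 in the long-term ones. The 5 genes of smallest p were Lrp1b (-1.9999), Ncam1 (-2.25), Dok6 (-2.66), Kcnd2 (-1.95) and Negr1 (-1.85), with an edgeR adjusted p from 0.276 to 0.881. Without mixed barcodes no gene was called and 37 were lower at that p. Of these, 5 (13.5%) had a higher CPM in neurons, against 15.9% of the 1382 genes tested there, a change that follows in part from the rule for mixed barcodes.

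Among the vessel lists the 1 member at that p was Smad6, an inhibitor of BMP signalling, while 3 neuron markers and 1 astrocyte marker were lower. It stood at 8.14 and 8.51 log2 CPM in long-term libraries and at 5.76, 6.33 and 6.71 in acute ones, from 1, 2 and 5 UMIs. Both long-term libraries were above all 3 acute ones, with a log2 fold change of 2.49 (SE 0.73, edgeR adjusted p = 0.881). Without mixed barcodes Adgrl4, Slc16a1 and Igfbp7 were also at that p, all lower. For Klf2 the direct difference was -0.08 (SE 0.31), for St6galnac3 -0.47 (SE 0.28) and for Bsg 0.35 (SE 0.26), and none had an unadjusted p under 0.05. A p above the threshold does not show that the 2 diets act alike.

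With the 3 old groups averaged against the young, 2 of 2187 genes were called (0.0914%), both lower, and DESeq2 called 34. Both had a higher pooled CPM in astrocytes than in endothelial nuclei. Wdr17 stood at 9.59 and 10.28 log2 CPM in young libraries and at 5.85 to 7.98 in the 7 old ones, a log2 fold change of -3.02 (SE 0.41, edgeR adjusted p = 0.00761). Dtna, a dystrobrevin, stood at 9.65 and 8.65 in the young and at 6.22 to 7.67 in the old libraries, a log2 fold change of -2.62 (SE 0.40, edgeR adjusted p = 0.0141). Each call ended without 1 of the young libraries: Dtna had an adjusted p of 0.611 without young 1, and Wdr17 0.113 without young 3. Without doublets young 1 held 19 nuclei, under the minimum of 20, which left 1 young library in that fit. In the same 9 libraries without doublets both genes were called again. With all 13 libraries edgeR called Wdr17 again (-2.97, adjusted p = 0.000457), while Dtna did not pass the filter on low counts, and at 60 marker UMIs per 10000 neither gene passed it. In both genes the young libraries were above every old one. Young 2, left out of the fit, had 294 CPM of Wdr17 (2 UMIs), above every old library, and 0 UMIs of Dtna. Wdr17 was at 2894 CPM in astrocytes and 144 CPM in endothelial nuclei, and Dtna at 1964 and 103 CPM.

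The summed astrocyte markers stood at 1431 and 634 CPM in the young sums, against 680 in old ad libitum library 1 and 111 to 344 in the other 6 old sums. Without mixed barcodes Wdr17 went from 25 and 36 UMIs to 2 and 4 UMIs in the young sums. Dtna went from 26 and 11 UMIs to 0 in both. Neither gene then passed the filter on low counts, and both calls were lost.

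With the 3 old groups averaged against the young, the single call without mixed barcodes was Bsg, which was named after its values were seen. Bsg encodes basigin, a surface glycoprotein that serves lactate carriers and is abundant at the barrier, and its pooled ratio to other nuclei was 123. It stood at 13.51 and 13.42 log2 CPM in young, 12.86 and 13.04 in old ad libitum, 12.32, 12.13 and 11.82 in acute and 12.76 and 12.06 in long-term libraries. Both young libraries were above all 7 old ones, with a log2 fold change of -0.97 (SE 0.22, edgeR adjusted p = 0.123). The libraries left out broke this separation: old ad libitum 4 had 8213 CPM (110 UMIs), the highest of the 13, and young 2 had 4706 CPM (32 UMIs), below old ad libitum 1 and 2 at 4950 and 5461 CPM. With all 13 libraries the log2 fold change of Bsg was -0.80 (edgeR adjusted p = 0.16). Without mixed barcodes the value was -1.17 (SE 0.19, adjusted p = 0.00132), and Bsg fell in that fit. Under free feeding alone the difference in Bsg was -0.52 (SE 0.28), and -0.15 (SE 0.34) with all 13 libraries. Acute restriction against old ad libitum gave -0.86 (SE 0.25), and -0.99 (SE 0.34) with all 13. Long-term restriction against old ad libitum gave -0.94 (SE 0.31) with all 13. That value includes old ad libitum 4 at 8213 CPM and long-term 2 and 3 at 2753 and 1719 CPM (102 and 31 UMIs). In the 9 libraries of the fit the long-term ones were closer, at 12.76 and 12.06 log2 CPM against 12.86 and 13.04. The remaining genes of smallest p in this contrast were Ptprz1 (-2.55), Acsl3 (-2.36) and Fgf14 (2.04), none called (Fgf14 was called with all 13 libraries, at 2.13 and an edgeR adjusted p of 0.0433), and Ptprz1 and Acsl3 had 38 and 26 UMIs in young library 1 against 1 and 2 without mixed barcodes.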

How the data were processed

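Single-nucleus RNA libraries of 13 mice were analysed from the deposited tables of UMI counts (genes by barcodes). The submitters' processing notes name Cell Ranger 4.0.0 and mm10. Whether intronic reads or strand entered the counts is not given in the sources used here, so overlapping and antisense genes are uncertain. The members, gene lists and tests were chosen with earlier results of these data known. Counts were read in Python 3.11.15 (scanpy 1.11.5, scipy 1.17.1), with no per-nucleus scaling. Doublets were scored with Scrublet per library and the highest 0.8% per 1000 retained barcodes taken. Counts of member nuclei were summed per mouse and tested in edgeR 4.0.16 (R 4.3.3; TMM, filterByExpr, robust quasi-likelihood, 4 groups in 1 fit, 5 residual degrees of freedom), with Benjamini-Hochberg adjustment; DESeq2 1.42.0 was an alternative. Log2 CPM used a prior count of 2. Scripts were tested on simulated counts.

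Shares were compared as log2 odds with 0.5 added to both counts, by exact permutation. Named genes were the calls, or the 5 genes of smallest p whose groups did not overlap, the list members at an unadjusted p under 0.05, and the 20 genes at 50 CPM or more with the highest median ratio to other nuclei (0.5 counts added), 1 of which is not reported here. Intervals cover counting error only.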

Additional observations from a re-analysis of the deposited data

How the results depend on the processing

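The number of called genes depended on the setting, and with 2 libraries in 3 of the 4 groups no count is stable. In the order ageing, long-term restriction, acute restriction, long-term against acute, both restrictions and age across diets, the counts were 0, 0, 0, 0, 0 and 2. Without a filter on low counts they were 77, 13, 6, 32, 18 and 127. Without the libraries numbered 1 they were 93, 79, 1, 110, 23 and 37, which leaves 1 library in every group but acute restriction, so these calls rest on the spread of that group alone. DESeq2 gave 20 for ageing, 2 for long-term against acute and 34 for age across diets. Age across diets gave 8 with all libraries, 1 without doublets, 5 without doublets in the same 9 libraries, 11 with a term for the libraries numbered 1, 4 with a depth covariate, 1 without mixed barcodes and 1 at 60 marker UMIs per 10000. Both restrictions gave 1 without mixed barcodes and 1 at 60 marker UMIs, and acute restriction 1 without mixed barcodes. The settings differed in the libraries, the nuclei, the filter or the model, and the cause of the changing counts was not tested.

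Leaving out 1 library at a time gave 0 to 76, 0 to 6, 0 to 26, 0 to 12, 0 to 24 and 1 to 108 genes. The highest counts came without old ad libitum library 1 (76, 6, 12 and 108) or 2 (26 and 24), which leaves that group with 1 library, assumed to vary like the others.

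Same-numbered libraries did not deviate together in every pair (r from -0.113 to 0.325), so the numbers were not taken as a pairing, although the 4 libraries numbered 1 share a low oligodendrocyte share (at most 3.61%). In a group of 2 libraries the deviations mirror each other, so these r values cannot decide whether a number marks a pairing. With the replicate block the counts were 65, 3, 5, 1, 8 and 128, in a fit with fewer than the 5 residual degrees of freedom of the main one. The block moved the share differences to 2.12, 0.44, -0.51 and -0.23 log2 odds, from 2, 3, 2 and 3 pairs of mice.

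The share differences changed sign. Leaving out 1 library gave -0.37 to 1.62 for ageing, -0.70 to 1.30 for long-term restriction, -0.52 to 1.47 for acute restriction and -0.58 to 0.073 for long-term against acute. Without the libraries numbered 1 ageing was -0.14, and thinned to 1000 UMIs long-term against acute was 0.042. The 59 tested values of named genes kept their direction in every setting that tested them, which the choice of genes with non-overlapping groups partly fixes. Chosen after seeing the data were the use of all libraries, the same 9 libraries without doublets, the same 9 libraries in the sums without mixed barcodes or at 60 marker UMIs, and the counts of called genes without the libraries numbered 1.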

Other observations

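Haemoglobin RNA was abundant in the endothelial sums and varied between libraries. Hbb-bs and Hba-a1 were taken outside the rule for naming genes. Their level in the other nuclei was not compared, and the source of this RNA was not tested. In the 9 libraries of the fit Hbb-bs stood at 11.08 and 7.87 log2 CPM in young, 12.86 and 10.42 in old ad libitum, 13.54, 13.85 and 12.30 in acutely restricted and 10.16 and 8.87 in long-term restricted libraries. Long-term minus acute was -3.71 (SE 1.13, edgeR unadjusted p = 0.0125, adjusted p = 0.954), and Hba-a1 had -3.39 (SE 1.25). The libraries of acutely restricted mice were above both long-term ones. Of the libraries left out, old ad libitum 4 had 9407 CPM of Hbb-bs, long-term 2 1053 CPM, long-term 3 55.5 CPM and young 2 0 UMIs.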
